A study of Mus musculus with 2 samples.

Results

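The cells described here are the 200 tumour cells, 100 in each of 2 libraries, that stood highest on the summed expression of 5 genes: Cth, Psph, Chchd10, Steap1 and Angptl6. They came from mouse brain tumours with mutant IDH1 in strain C57BL/6, taken at the symptomatic stage, from which single cells were sequenced by 10x Genomics droplet RNA-seq. The series' design text calls the tumours genetically engineered gliomas. The labels give no age, sex or driving alleles beyond the IDH1 mutation, and do not say whether the libraries, replicates 1 and 2 of 1 group, came from separate animals. The files held 2704 barcodes in library 1 and 2266 in library 2, 4970 in all. A barcode counted as a tumour cell with at least 200 genes, at most 15 percent mitochondrial UMIs, at least 10000 UMIs (unique molecular identifiers, counts of captured transcripts), Nras at 1000 CPM or more (UMIs of a gene per 1000000 UMIs), and at most 1 UMI of the myeloid adaptor genes Tyrobp and Fcer1g together. This left 1032 and 854 tumour cells. Within each library these were ranked by the sum of log2(CPM + 1) of the 5 genes, and the 100 highest were taken, so members were chosen by the measured levels of these 5 genes, leaving 932 and 754 other tumour cells for comparison.

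The ranking genes were proposed from earlier results of these same data, and 2 of them work in amino-acid synthesis. Cth encodes cystathionine gamma-lyase, which makes cysteine from cystathionine in the transsulfuration pathway, and Psph encodes phosphoserine phosphatase, the last step of serine synthesis. Chchd10 encodes a small protein of the mitochondrial intermembrane space, Steap1 a haem-binding membrane protein of a metalloreductase family, and Angptl6 a secreted angiopoietin-like protein. Serine and cysteine synthesis, asparagine synthesis, amino-acid uptake and tRNA charging are textbook targets of the transcription factor ATF4. Its translation rises when kinases phosphorylate the initiation factor eIF2, for instance in amino-acid shortage, endoplasmic reticulum stress or mitochondrial stress. ATF4 also induces CHOP (gene Ddit3), and both act on Ppp1r15a, Trib3 and other genes of the same response.

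The members' values of the ranking genes are a description, since these genes chose the cells. Cth stood at 550 CPM in the members of library 1 and 499 CPM in those of library 2, against 189 and 198 CPM in the other tumour cells. For Psph the values were 539 and 517 CPM against 291 and 290 CPM. Chchd10 was counted at 519 and 572 CPM in members and at 165 and 155 CPM in other tumour cells. Both libraries gave the same order of the classes for each gene. Steap1 stood at 271 and 260 CPM against 94.9 and 91.9 CPM. Angptl6 stood at 96.7 and 88.7 CPM against 23.2 and 21.7 CPM, and its CPM ratios of 4.17 and 4.08 were the widest of the 5. Single members spread widely around these sums. The lowest member of library 1 had Cth at 142 CPM, the median member 527 and the highest 1120 CPM, and in library 2 these were 156, 470 and 1071 CPM. For Chchd10 they were 105, 515 and 1352 CPM and 80.3, 541 and 1731 CPM. The median other tumour cell had Cth at 135 and 132 CPM, so the lower members overlapped the upper range of the rest. The genes lie on 4 chromosomes of GRCm38: Cth on chr3:157894248-157925077, Psph on chr5:129765558-129787449, Steap1 on chr5:5736317-5749326, Angptl6 on chr9:20873808-20879727 and Chchd10 on chr10:75933130-75937747.

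Members were the upper end of a slope and not a separate set of cells. Scores in library 1 ran from 39.68 to 45.09 in members, with the first cell outside at 39.65. The last cell inside held 24 UMIs of Cth, 26 of Psph, 7 of Chchd10, 10 of Steap1 and 1 of Angptl6, and the first outside 18, 24, 14, 9 and 5 from a deeper cell. In library 2 they ran from 39.34 to 45.71, and the first cell outside also had 39.34. All 5 genes had a UMI in every member, which a high score favours but does not require, and in 38.8 and 39.3 percent of the other tumour cells. The depth of the classes was close: the median member held 42136.5 UMIs in library 1 and 50560 in library 2, against 42728.5 and 47627 in other tumour cells, and the median mitochondrial share was 3.23 and 3.57 percent against 3.46 and 3.63 percent. Across all tumour cells of a library the score had a Pearson correlation of 0.29 with the log2 UMI total in both libraries, and the part of depth in the ranking is described after thinning, below.

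**Figure D1:**
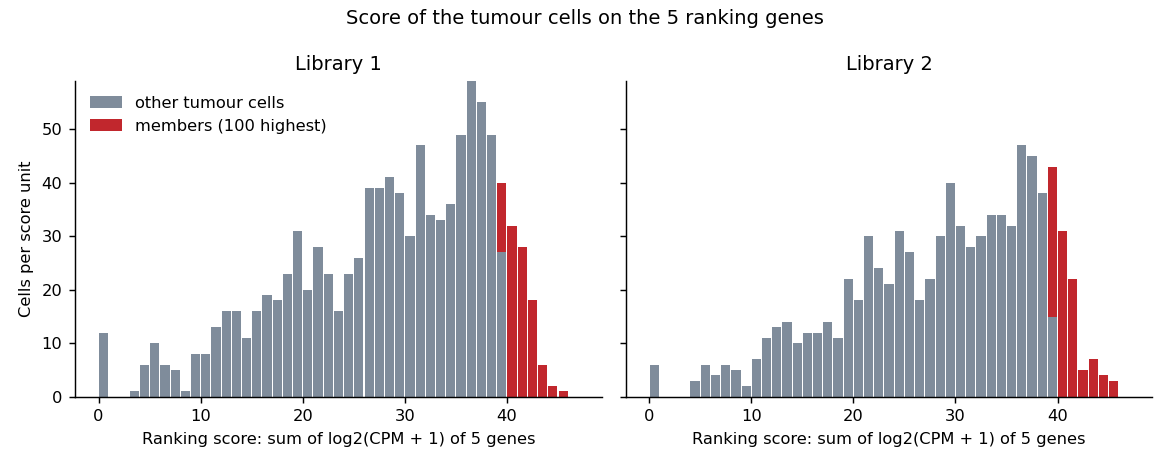
Number of tumour cells (y axis) per unit of the ranking score (x axis, sum of log2(CPM + 1) of the 5 genes) in each library. Members, in red, form the right flank of 1 broad distribution, starting at a score of 39.68 in library 1 and 39.34 in library 2.

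The 5 genes were proposed as a set from these data, so their going together was fixed by that choice and is only described. The 100 cells ranked highest on the other 4 genes held Cth at 470 CPM in library 1 and 418 in library 2, against 198 and 209 CPM in the rest, ratios of 2.38 and 2.0. For Angptl6 the ratios were 2.99 and 2.77, for Chchd10 2.54 and 2.81, for Steap1 2.34 and 2.35, and for Psph 1.66 and 1.65. These sets shared between 77 and 91 of their 100 cells with the members. Cell by cell, the closest pair was Cth and Psph, with Spearman correlations of 0.69 over 1032 cells and 0.75 over 854, and the loosest were Chchd10 with Steap1, at 0.33 and 0.34, and Chchd10 with Psph, at 0.36 in each library. All these cells share a library, and deeper cells show more genes, so the values are given as a description.

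Because the rank depends on detection, cells were also compared after thinning each to 10000 UMIs. At that depth Cth had a UMI in 99.0 and 97.0 percent of members and in 63.2 and 65.4 percent of other tumour cells. In myeloid barcodes, which give a floor for free RNA, the share was 1.61 and 2.67 percent at median depths of 14021.5 and 13584.5 UMIs before thinning (3.23 and 4.0 percent unthinned). Angptl6 had a UMI in 61 and 53 of the 100 members at that depth, in 18.6 and 19.5 percent of the other tumour cells and in 4.03 and 2.0 percent of the myeloid barcodes. Membership itself was less stable: a ranking made on thinned counts kept 53 and 49 of the 100 members, and the Cth ratio fell to 2.27 and 1.84.

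The tumour markers Sox2, Nes and Tnc were present in members, below their level in the rest. Sox2, a neural stem cell transcription factor, stood at 16.9 and 13.8 CPM in members against 18.8 and 17.3 CPM in other tumour cells. Nes (nestin) had 95.4 and 101 CPM against 111 and 113 CPM, and Tnc (tenascin C) 39.8 and 41.1 against 45.5 and 47.7 CPM, and none of these 3 met both thresholds for a call, given below. Of 14 listed neural stem and glioma identity genes 5 had no UMI in members. Of the 9 tested, 6 were below 0 in both libraries and 1 above. Their median log2 fold change was -0.26, with values from -7.57 to 0.79. At an adjusted p under 0.05 of any size (edgeR) 5 were lower and 0 higher. Nras, used by the gate, stood at 2632 and 2866 CPM in members and 2740 and 3227 CPM in other tumour cells. Markers of other cell types were scarce. The 10 macrophage and microglia markers summed to 28.1 and 23.7 CPM in members and 27.4 and 29.4 CPM in other tumour cells, and 7 of 8 T and NK cell markers had no UMI in members. Neuron markers summed to 0.433 and 0.354 CPM and hepatocyte markers to 0.866 and 1.24 CPM. Endothelial markers stood at 14.5 and 9.74 CPM with Cldn5 and Kdr at 0, oligodendrocyte markers at 6.71 and 9.39 CPM, astrocyte markers at 35.5 and 43.8 CPM with Aqp4 at 0, and mast cell and basophil markers at 2.38 and 1.77 CPM. Mural and fibroblast markers summed to 12.1 and 13.3 CPM, against 26.2 and 28.3 CPM in other tumour cells. Haemoglobin RNA came mostly from library 1: red cell markers summed to 295 and 11.0 CPM in members and 246 and 28.6 CPM in others. Scrublet called 11 and 3 doublets among all barcodes passing the gene and mitochondrial filters, 0 of them members, too few calls for a strong check. The libraries shared 10 barcodes, of which 0 were members.

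For all other genes, UMIs were summed over the members and over the other tumour cells of each library and tested with edgeR's quasi-likelihood test, the library as a block. Of 12334 genes tested, 470 were called higher in members, or 3.81 percent, and 1012 lower, or 8.20 percent. Calls were made at 0.05 on p-values adjusted after Benjamini and Hochberg and at a log2 fold change of 0.5 or more in size, and higher, lower, rose and fell are used below for called genes. The median log2 fold change over all genes tested was -0.01. P-values rest on how far the difference between the classes varies over 2 libraries, which may be technical. With 1 residual degree of freedom per gene, that spread is mostly borrowed across genes by edgeR (124.74 prior degrees of freedom). The p-values also take the choice of the 5 genes from these same cells as given. DESeq2 called 254 higher (2.29 percent of 11088) and 346 lower (3.12 percent). With members ranked on thinned counts edgeR called 226 higher and 565 lower.

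**Figure D2:**
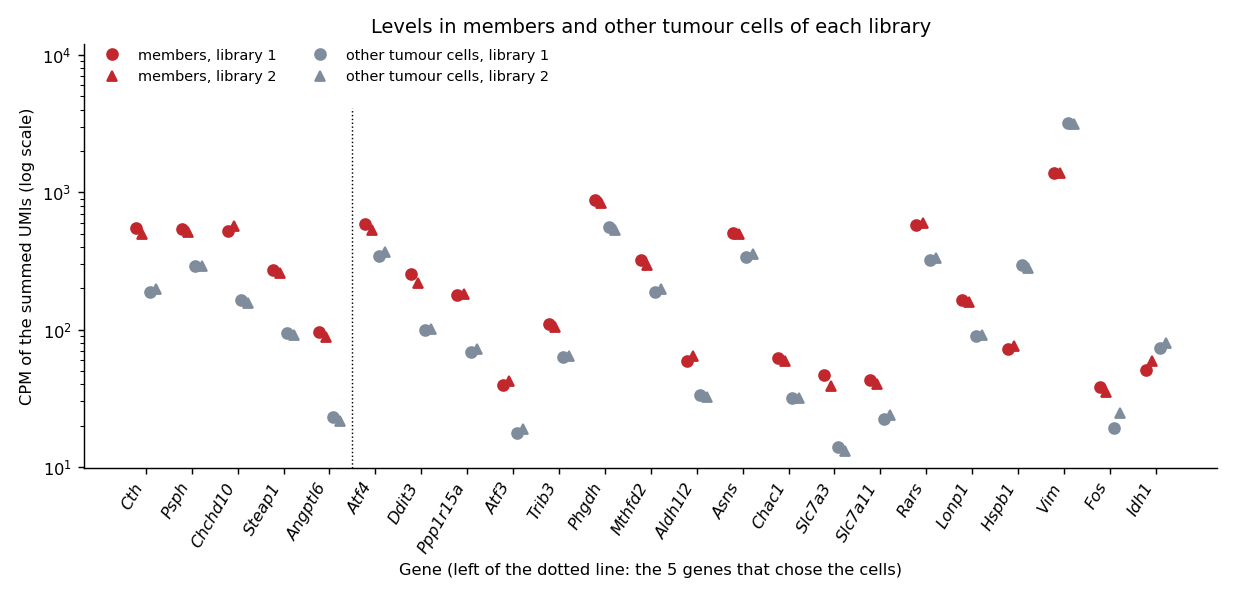
CPM (log scale) of the summed UMIs in members (red) and other tumour cells (grey), circles for library 1 and triangles for library 2, for the 5 ranking genes left of the dotted line and 18 other genes right of it. For Ddit3 the members lie at 256 and 220 CPM and the others at 99.1 and 101 CPM, while Vim lies the other way, at 1373 and 1385 CPM against 3167 and 3145 CPM.

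Genes of the ATF4 and CHOP response rose together in members. Of 19 genes on this list, all tested, 14 were higher and 0 lower, beside 3.81 and 8.20 percent of all genes tested. The median log2 fold change of the list was 0.75. Ddit3, which encodes CHOP, stood at 256 CPM in the members of library 1 and 220 CPM in those of library 2, against 99.1 and 101 CPM in the other tumour cells. The log2 fold change was 1.23 ± 0.05 (SE; edgeR adjusted p = 7.02e-45). Ppp1r15a encodes GADD34, which recruits the phosphatase that removes phosphate from eIF2. It was counted at 178 and 182 CPM against 69.2 and 72.2 CPM, a log2 fold change of 1.34 ± 0.06 (edgeR adjusted p = 4.56e-45). For both genes the member values of either library lay above both values of the other cells.

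Atf4 itself was higher, at 583 and 534 CPM against 346 and 365 CPM (log2 fold change 0.64 ± 0.04, edgeR adjusted p = 1.58e-29). Its relatives Atf3 (39.2 and 42.5 CPM against 17.7 and 19.0 CPM, log2 fold change 1.14) and Atf5 (208 and 193 against 125 and 138 CPM, 0.60) rose with it. Trib3, a pseudokinase induced by CHOP, stood at 110 and 104 CPM against 62.9 and 64.0 CPM, and Sesn2, a leucine-sensing inhibitor of mTORC1, at 35.5 and 35.4 against 20.7 and 20.3 CPM. Herpud1, a component of endoplasmic reticulum protein degradation, was higher by 0.93 on the log2 scale and Eif4ebp1, which encodes a translation repressor, by 0.51. Vldlr, Stc2, Jdp2, Adm2 and Gdf15 made up the rest of the 14. Gdf15, a secreted stress cytokine, differed between libraries, with 14.9 and 7.44 CPM in members against 5.14 and 4.73 CPM. Of the 5 not called, Cebpg had a log2 fold change of 0.41, Cebpb of 0.17, and Fgf21 9 UMIs in all members. Nupr1 was level (1295 and 1189 CPM against 1241 and 1225 CPM, log2 fold change -0.00 ± 0.03), and Ddit4 was at -0.13 ± 0.09. On this list DESeq2 called 13 of 18 tested genes higher, and edgeR on the thinned ranking 11 of 19, without Atf4.

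No kinase or factor upstream was called higher, while several eIF2 and eIF2B subunit genes lay above 0 by less than the size threshold. Of 15 eIF2 kinase, OMA1-DELE1 relay and eIF2B genes tested, 0 were called higher by edgeR or DESeq2 and 1 was lower, with a median of 0.14, and 7 were above 0 at an unadjusted p under 0.05. At an adjusted p under 0.05 of any size (edgeR) 6 lay above 0 and 1 below, beside 1906 and 1864 of all 12334 genes tested. The log2 fold changes of those above 0 were 0.42 for Eif2b3, 0.39 for Eif2b2, 0.38 for Eif2s2, 0.24 for Eif2s1, 0.23 for Eif2b5 and 0.22 for Eif2b1. Eif2b4 was at -0.05 ± 0.13. The gene that fell was Eif2ak2, the double-stranded RNA sensor PKR, itself induced by interferon, with 26.2 and 29.4 CPM against 40.1 and 41.2 CPM. In the unfolded protein response of the endoplasmic reticulum, 2 of 17 genes rose and 0 fell. These were Atf6, a membrane-bound stress sensor (68.0 and 63.2 against 37.0 and 40.2 CPM), and Sel1l, an adaptor of the degradation ligase. Hspa5, the chief chaperone of that compartment, had 702 and 583 CPM against 456 and 473 CPM, a log2 fold change of 0.45 ± 0.04 that fell short of the size threshold. The share of 2 in 17 genes stands beside 3.81 percent over all genes tested, and with thinned ranking neither was called. With the top 50 cells 4 of the 17 were called higher, and with mitotic cells left out also 4. At an adjusted p under 0.05 of any size (edgeR) 7 of the 17 lay above 0 and 1 below.

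Amino-acid uptake genes were the next group. Among 16 transporters tested, 10 were higher and 2 lower, beside 3.81 and 8.20 percent of all genes tested. Their median log2 fold change was 0.53. Slc7a3, a cationic amino-acid transporter that carries arginine and lysine, stood at 46.7 and 39.1 CPM in members against 13.9 and 13.0 CPM in the others. Its log2 fold change of 1.66 ± 0.10 (edgeR adjusted p = 2.62e-31) was the largest of the list. It was found in 57.0 and 55.0 percent of members and 26.7 and 26.5 percent of other tumour cells, and in 0 of 124 and 1 of 150 myeloid barcodes. After thinning it was found in 30 and 32 of the 100 members, against 11.4 and 9.42 percent of the others. Slc7a11, the cystine importer, had 42.8 and 40.2 CPM against 22.4 and 23.8 CPM, and the glycine transporter Slc6a9 34.0 and 34.7 against 17.7 and 20.4 CPM. Slc7a5 and Slc3a2, the light and heavy chains of the large neutral amino-acid exchanger, rose by log2 0.62 and 0.54. Slc7a1, Slc1a4, Slc1a5, Slc38a7 and the rarely counted Slc1a3 (12 and 8 UMIs in members) were the others called higher. Slc36a1 and Slc43a2 were lower on 8 and 1 UMIs in all members, too few to weigh. DESeq2 called 8 of 15 higher and 0 lower. Against other cells with at least 4 of the 5 ranking genes 5 were higher, and without interferon-high cells 6.

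tRNA charging followed in the cytosol. Of 20 cytosolic aminoacyl-tRNA synthetases, which attach amino acids to tRNAs, 10 rose and 0 fell, with a median of 0.46. Rars, for arginine, stood at 576 and 592 CPM against 321 and 334 CPM (log2 fold change 0.82 ± 0.04, edgeR adjusted p = 2.21e-40). Wars, for tryptophan, had 121 and 112 CPM against 66.1 and 63.4 CPM, and Nars, for asparagine, 586 and 573 against 351 and 378 CPM. Eprs, Farsb, Gars, Lars, Sars, Tars and Yars completed the group, at 0.51 to 0.66. Most of these sit just past the size threshold: with thinned ranking Rars and Wars were the 2 of 20 called, at a list median of 0.36, and against other cells with at least 4 of the 5 ranking genes 4 of 20. Their mitochondrial counterparts numbered 1 higher and 0 lower of 17, with a median of 0.18, the one being Nars2. Over all genes 3.81 percent were called higher, and Nars2 was not called by DESeq2, with the top 50 cells, under thinned ranking or within the members' UMI range.

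Enzymes of amino-acid synthesis, which the label names, rose in smaller numbers. In serine, glycine and folate one-carbon metabolism 5 of 20 genes were higher and 2 lower, with a median of 0.20. Of all genes tested, 3.81 percent were called higher and 8.20 percent lower. Phgdh, the entry enzyme of serine synthesis, stood at 881 and 839 CPM against 558 and 535 CPM (log2 fold change 0.64 ± 0.04, edgeR adjusted p = 1.85e-34). Psat1, the enzyme between Phgdh and Psph, had 223 and 212 CPM against 158 and 169 CPM. Its log2 fold change of 0.40 ± 0.05 had an edgeR adjusted p of 2.52e-11 but lay under the size threshold, so it was not called. Mitochondrial folate enzymes rose: Mthfd2 at 323 and 294 CPM against 188 and 197 CPM, Aldh1l2 at 58.9 and 64.3 against 33.3 and 32.2 CPM, and Shmt2 at 217 and 211 against 151 and 148 CPM. Aldh1l1 fell on 1 UMI in all members, and Gldc, of the glycine cleavage system, on 24 (1.95 and 2.66 CPM against 5.67 and 4.78 CPM). Under thinned ranking 2 were higher and 1 lower, Phgdh no longer among them, and DESeq2 called 4 higher and 0 lower.

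In asparagine, proline and related synthesis 5 of 18 genes were higher and 1 lower, with a median of 0.38. This count and that of the methionine list below stand beside 3.81 percent higher and 8.20 percent lower over all genes tested. Asns, asparagine synthetase, had 507 and 496 CPM against 338 and 354 CPM, a log2 fold change of 0.52 ± 0.04. Aldh18a1 and Pycr1 are the first and last enzymes of proline synthesis from glutamate, and Pycr1 stood at 46.5 and 49.1 CPM against 24.7 and 26.4 CPM. The transaminases Got1 (235 and 224 against 152 and 152 CPM) and Gpt2 (44.6 and 39.1 against 26.0 and 25.1 CPM) also rose. Glul, glutamine synthetase, fell, from 15.7 and 17.1 CPM in other tumour cells to 8.01 and 9.21 CPM in members. Under thinned ranking 2 of this list were higher and 1 lower, and Asns was not called. In the methionine, transsulfuration and glutathione list 3 of 16 tested genes were higher and 0 lower. Chac1, which degrades glutathione and is a CHOP and ATF4 target, had 61.7 and 58.8 CPM against 31.8 and 31.7 CPM (log2 fold change 0.91 ± 0.08). Mtrr, which reactivates methionine synthase, had 12.6 and 12.2 CPM against 8.30 and 8.73 CPM, just past the size threshold. Cbs, the enzyme before Cth, was called higher on 7 and 13 UMIs in members. Neither Mtrr nor Cbs was called by DESeq2 or under thinned ranking. The glutamate-cysteine ligase modifier Gclm was level at 104 and 104 CPM against 104 and 103 CPM. The data therefore show the labelled synthesis genes as 1 portion of the difference, beside the stress, uptake and tRNA charging genes.

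**Figure D3:**
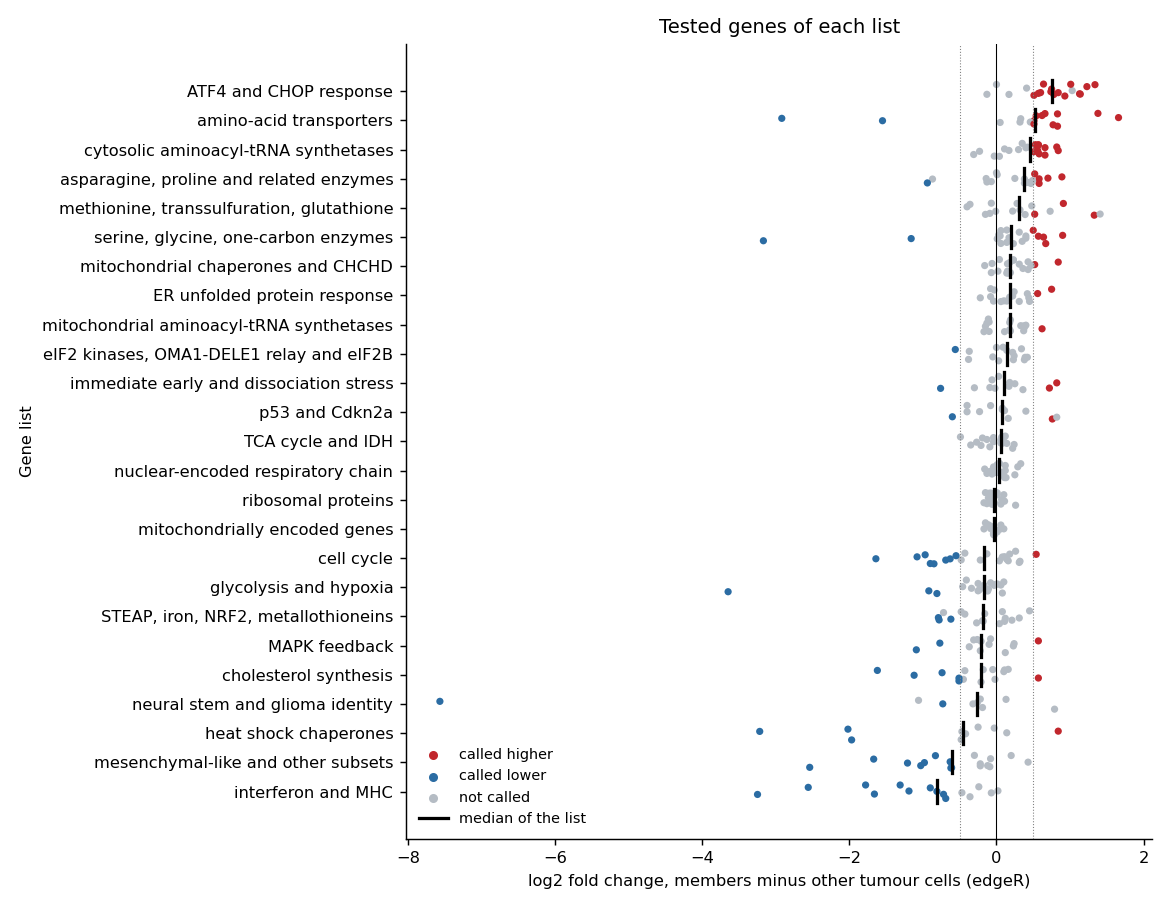
Log2 fold change (x axis, members minus other tumour cells) of every tested gene of each list (y axis), red where called higher, blue where called lower and grey where not called, with black bars for list medians and dotted lines at the size threshold of 0.5. The ATF4 and CHOP list has the highest median, 0.75, and the interferon and MHC list the lowest, -0.81.

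Across single cells of each library, the score went with the same lists. After thinning, its Pearson correlation with the summed log2(CPM + 1) of the ATF4 and CHOP list was 0.54 over 1032 cells and 0.58 over 854. It was 0.52 and 0.55 for transporters, 0.51 and 0.52 for cytosolic synthetases and 0.42 and 0.41 for serine and folate enzymes. It was 0.02 and -0.03 for ribosomal proteins and -0.27 and -0.25 for heat shock chaperones. The points of a library share its preparation, and residual depth was not removed beyond the thinning.

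Levels of Ddit3, Asns and Vim sloped along the ranking, with no break at rank 100. Not every gene did so. Sesn2 in library 1 held 34.7, 36.2 and 36.7 CPM in ranks 1 to 50, 51 to 100 and 101 to 200. Cxcl10 in library 2 went from 11.1 CPM in ranks 51 to 100 to 97.4 CPM in ranks 101 to 200. Between these bins it went from 40.4 to 64.3 CPM in library 1. In library 1 Ddit3 stood at 310 CPM in ranks 1 to 50, 204 in ranks 51 to 100, 171 in ranks 101 to 200, 126 in ranks 201 to 400 and 74.9 CPM in the rest. In library 2 the same bins held 259, 188, 180, 116 and 71.6 CPM. Asns ran from 547 to 302 CPM in library 1 and from 537 to 296 CPM in library 2. Between the 2 upper bins Cdsn went from 60.1 to 17.7 CPM in library 1 and from 38.4 to 23.1 CPM in library 2. Vim ran upward, from 1145 to 3683 CPM and from 1197 to 3763 CPM.

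**Figure D4:**
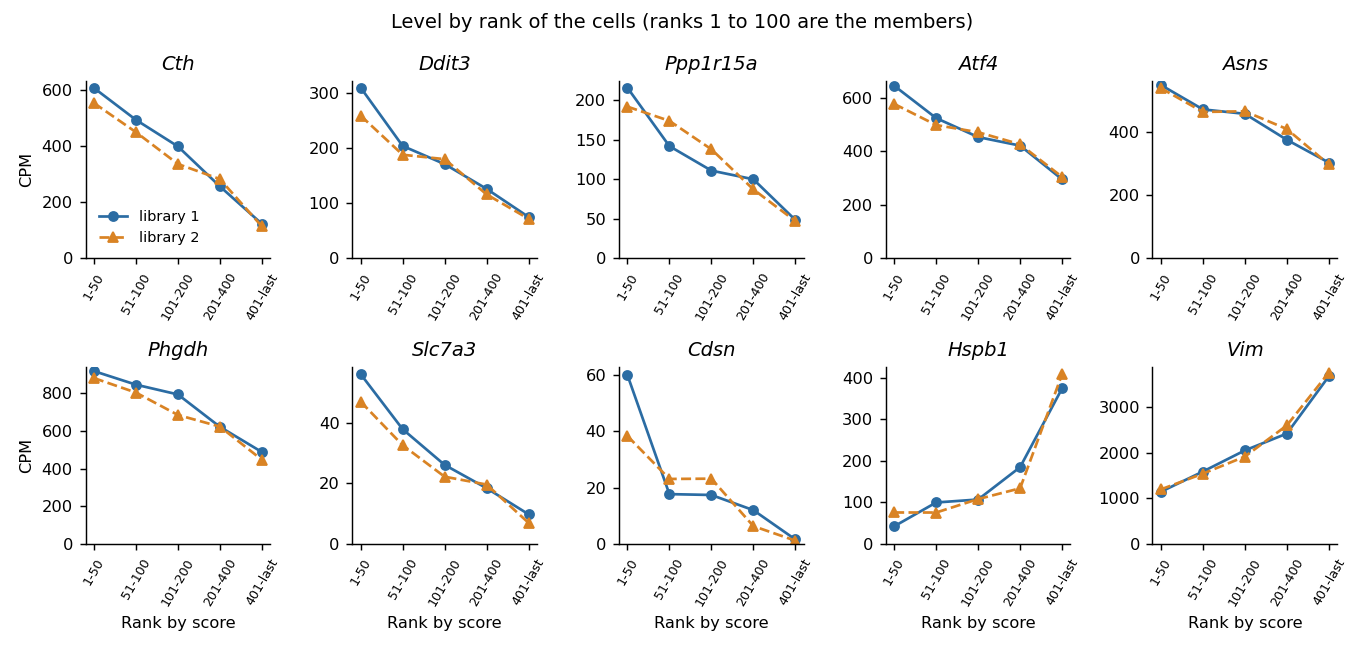
CPM (y axis, from 0) of 10 genes in 5 bins of cells by rank on the score (x axis), library 1 in blue and library 2 in orange. Ddit3 declines from 310 to 74.9 CPM in library 1 and from 259 to 71.6 CPM in library 2, and Hspb1 and Vim increase toward the lower ranks.

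Promoter sequence was examined because ATF4 pairs with C/EBP proteins on a composite element, TGATGNAA or its reverse complement TTNCATCA. RefSeq promoters on GRCm38.p6, 250 bases before to 50 after a gene's start, were searched on both strands. They were found for 51 of 67 genes looked for: the ranking genes, the called-higher genes of the 6 ATF4 and amino-acid lists, and the 15 leading genes outside the lists. The element was present for 14 of 37 list genes called higher with a promoter, 37.8 percent, and for 262 of 9481 genes tested, 2.76 percent. Over all genes with a promoter it was present for 4.51 percent, and over all 365 genes called higher for 33, 9.04 percent. The lists hold many known ATF4 targets, so these shares describe the lists. The ATF/CRE element TGACGTCA was present for 1 of the 37 (Ppp1r15a) and for 3.77 percent of genes tested. The 2 elements were counted separately, and a match here is only a match of letters. Of the 4 ranking genes with a promoter, Chchd10 held the composite element, in 2 copies.

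The windows below show the element, in capitals, upstream of the start in Chchd10 and in 7 called genes of different roles, each written 5′ to 3′ on the gene's strand. The start is RefSeq's, and the Asns window lies inside that gene as GENCODE M21 gives it. They are given because the copies can be compared directly.
Chchd10, chr10:75933025-75933084, plus strand: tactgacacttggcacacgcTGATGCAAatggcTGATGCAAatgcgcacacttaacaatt
Slc7a11, chr3:50443637-50443696, minus strand: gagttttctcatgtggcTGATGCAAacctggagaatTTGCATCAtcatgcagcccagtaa
Atf3, chr1:191183410-191183469, minus strand: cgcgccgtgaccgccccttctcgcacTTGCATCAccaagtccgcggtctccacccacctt
Chac1, chr2:119351023-119351082, plus strand: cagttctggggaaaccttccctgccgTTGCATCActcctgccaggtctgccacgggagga
Herpud1, chr8:94386291-94386350, plus strand: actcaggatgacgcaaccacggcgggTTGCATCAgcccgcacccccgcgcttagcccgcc
Pycr1, chr11:120643818-120643877, minus strand: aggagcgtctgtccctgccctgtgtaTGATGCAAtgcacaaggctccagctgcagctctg
Got1, chr19:43524674-43524733, minus strand: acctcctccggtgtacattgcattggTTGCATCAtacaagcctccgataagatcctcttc
Asns, chr6:7693214-7693243, minus strand: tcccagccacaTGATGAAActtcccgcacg
Slc7a11 and Chchd10 each show 2 copies, in opposite directions in Slc7a11 and in the same direction in Chchd10.

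Among genes outside the lists, 191 higher and 245 lower genes had at least 20 CPM in the higher class and 1 direction in both libraries, and the 15 furthest in each direction were named by rule. Cdsn, which encodes corneodesmosin, a secreted adhesion protein of the skin barrier, was furthest up. It stood at 38.3 and 30.1 CPM in members against 6.10 and 5.82 CPM in the others, a log2 fold change of 2.50 ± 0.12 (edgeR adjusted p = 2.15e-39). It was found in 58.0 and 56.0 percent of members and 15.6 and 14.2 percent of other tumour cells, and after thinning in 24 and 18 of 100 members against 4.51 and 4.38 percent of the others. No myeloid barcode held a UMI of it, 0 of 124 and 0 of 150, which allows shares of up to 2.42 and 2.0 percent. Gnpnat1, an enzyme of the hexosamine pathway that makes UDP-N-acetylglucosamine, had 196 and 179 CPM against 73.8 and 75.2 CPM (log2 fold change 1.31 ± 0.06).

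Grem1, a secreted BMP antagonist, stood at 45.9 and 47.5 CPM against 14.6 and 19.5 CPM, and Socs2, a feedback inhibitor of cytokine signalling, at 69.5 and 70.9 against 29.9 and 33.9 CPM. Mknk1, a kinase of the initiation factor eIF4E, had 57.3 and 55.1 CPM against 23.5 and 24.0 CPM. Acot2, a mitochondrial acyl-CoA thioesterase, Osbpl2, an oxysterol-binding protein, Erlin1, of endoplasmic reticulum lipid rafts, and Reep6, which shapes that membrane, rose by log2 1.31 to 1.53. Ciart, a repressor of the circadian clock, rose by 1.47, Stbd1, a glycogen-binding protein, by 1.54 and Fam171b by 1.70. Ralyl, Mettl7b and the unnamed gene model Gm32856 were the other 3. These genes were picked as furthest up with 1 direction in both libraries, most of them reaching 20 CPM in members alone, so that their groups do not overlap follows from the rule.

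**Figure D5:**
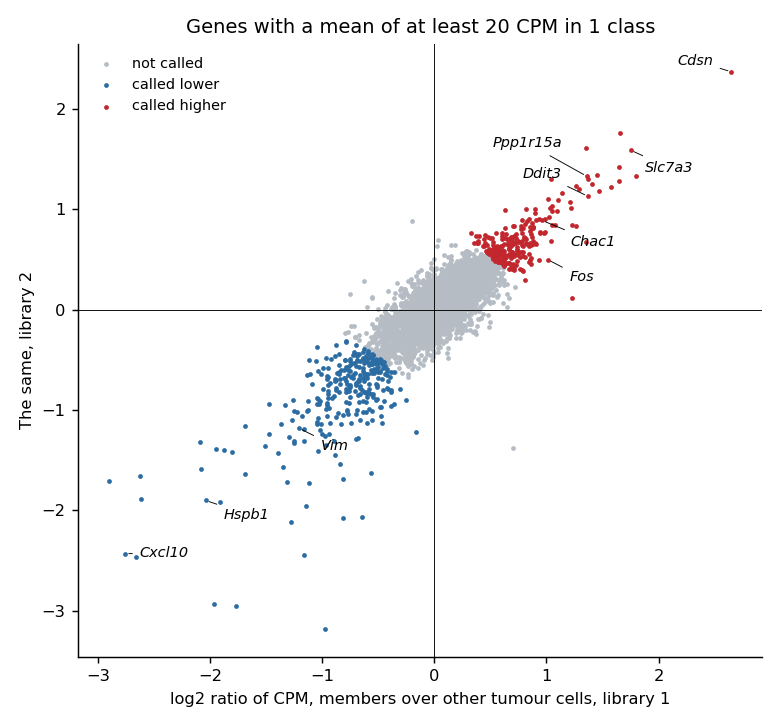
Log2 ratio of CPM, members over other tumour cells, in library 1 (x axis) against library 2 (y axis) for the 5644 tested genes with a mean of at least 20 CPM in 1 class, 244 called higher (red) and 293 called lower (blue). Cdsn lies at 2.65 and 2.37, and Cxcl10 at -2.76 and -2.43.

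Respiratory chain, mitochondrially encoded and tricarboxylic acid cycle genes were mostly level. Neither edgeR nor DESeq2 called a gene among 20 nuclear-encoded respiratory chain genes (median 0.03), 13 mitochondrially encoded genes (median -0.04) or 20 tricarboxylic acid cycle and isocitrate dehydrogenase genes (median 0.06). At an unadjusted p under 0.05 of any size, 6, 2 and 3 of them lay above 0 and 2, 5 and 4 below. In the last list edgeR called 1 gene lower with no low-count filter, at 20 CPM, with the top 50 cells and within the members' UMI range. Idh1, which encodes the cytosolic enzyme mutated in these tumours, had 51.1 and 59.3 CPM in members against 73.6 and 80.3 CPM. Its log2 fold change of -0.49 ± 0.07, the lowest of the tricarboxylic acid cycle list, lay just inside the size threshold. Counts per gene do not separate mutant from normal transcripts. Of 20 mitochondrial chaperones, proteases and CHCHD proteins 2 rose and 0 fell: Lonp1, the matrix protease (165 and 160 CPM against 89.6 and 90.6 CPM, log2 fold change 0.84 ± 0.06), and Hspd1, the matrix chaperonin (969 and 941 against 668 and 654 CPM), which was not called under thinned ranking. At an adjusted p under 0.05 of any size (edgeR) 13 of these 20 genes lay above 0 and 0 below, with a list median of 0.19. Over all 12334 genes tested 1906 lay above 0 and 1864 below in that way. The 20 ribosomal protein genes had 0 calls by either tool and a median of -0.04, with 6 above and 10 below 0 at an unadjusted p under 0.05. Other STEAP reductases, iron and NRF2 genes gave 0 higher and 3 lower of 17, and 2 angiopoietin-like genes tested gave none by either tool (1 below 0 at an unadjusted p under 0.05). The 3 that fell were Srxn1, which DESeq2 did not call, and the metallothioneins Mt1 (295 and 329 CPM against 527 and 532 CPM) and Mt2. Over all genes tested 3.81 percent were called higher and 8.20 percent lower.

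The genes lower in members belonged to several other programmes, beside a share of 8.20 percent called lower over all genes tested. Of 17 mesenchymal-like genes and leading genes of other tumour subsets 9 were lower and 0 higher, with a median of -0.61. Vim, the intermediate filament vimentin, stood at 1373 and 1385 CPM in members against 3167 and 3145 CPM in the others (log2 fold change -1.21 ± 0.03, edgeR adjusted p = 9e-73). Anxa1, a phospholipid-binding protein, had 266 and 287 CPM against 553 and 528 CPM, and Scx, the tendon transcription factor scleraxis, 12.6 and 12.9 against 40.4 and 40.3 CPM. Emp1, Tgfbi, Timp3, Crabp1 and Fst fell too, Fst on 25 UMIs in all members. Without interferon-high cells 5 of the 17 were lower, with a median of -0.31. Csf3, which encodes the granulocyte growth factor G-CSF named in the series title, was called lower at -0.62 ± 0.21 (edgeR adjusted p = 0.013), but its libraries disagreed. Members held 2.81 and 7.97 CPM and other tumour cells 9.69 and 7.61 CPM, so the ratio was -1.78 on the log2 scale in library 1 and 0.07 in library 2. DESeq2 did not call it.

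Interferon-induced and MHC genes were lower in members. Of 15 tested 10 were lower and 0 higher, beside 8.20 and 3.81 percent of all genes tested. The median was -0.81. Ifit3, an antiviral effector, had 16.2 and 30.3 CPM against 68.7 and 91.1 CPM and the immunoproteasome subunit Psmb8 109 and 118 against 216 and 204 CPM. Outside the list Cxcl10, an interferon-induced chemokine, stood at 23.2 and 25.7 CPM against 157 and 138 CPM (log2 fold change -2.59 ± 0.08). Gbp2, Gbp4, Rsad2 and Slfn2, all interferon-induced, and the chemokine Ccl2 were also among the 15 furthest down. Cells with at least 500 CPM of 7 interferon-induced genes numbered 26 and 19 of the 100 members and made up 37.9 and 38.5 percent of other tumour cells. The 7 genes, summed, were Cxcl10, Rsad2, Ifit1, Ifit3, Isg15, Iigp1 and Gbp2. Without cells high in them in either class 4 of 14 tested list genes were lower, with a median of -0.35, and Cxcl10 was at 0.01. Leaving out cells by Cxcl10 itself draws its value toward 0. Ifit1, Ifit3 and Isg15 are also on the list, so these values are only a description. With mitotic cells left out the log2 fold change of Cxcl10 was -4.71.

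Of 22 cell cycle genes 8 were lower in members and 1 higher, with a median of -0.17. The shares over all genes tested were 8.20 percent lower and 3.81 percent higher. Ube2c, of the anaphase-promoting machinery, stood at 133 and 163 CPM against 293 and 328 CPM, Ccnb2, a mitotic cyclin, at 13.9 and 19.5 against 53.5 and 51.2 CPM, and Mki67 at 28.1 and 32.8 against 54.2 and 58.7 CPM. Cenpf, Tpx2, Aurka, Plk1 and Ccnb1 were the others, and Cdkn3 and the histone gene Hist1h2bc were among the 15 furthest down outside the lists. The gene that rose was Ccne2, a cyclin of the entry into replication (8.66 and 8.86 against 6.05 and 5.87 CPM), which DESeq2 did not call. Cells with at least 500 CPM of 6 mitotic genes numbered 33 and 40 of the 100 members and made up 43.2 and 42.7 percent of the others. The 6 genes, summed, were Ube2c, Top2a, Mki67, Cenpf, Ccnb1 and Cdk1, which are on the list as well. With cells high in them left out of both classes the list had 8 lower genes and a median of -0.21. Since the 6 genes both define those cells and belong to the list, these values are only a description. Under thinned ranking it had 3.

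Heat shock genes were lower in part. Of 10 chaperones 3 fell and 1 rose, with a median of -0.45, where 8.20 percent of all genes tested fell and 3.81 percent rose. Hspb1, the small heat shock protein HSP27, stood at 71.8 and 75.6 CPM in members against 295 and 281 CPM in the others (log2 fold change -1.97 ± 0.06, edgeR adjusted p = 2.94e-62). After thinning it was found in 28 and 40 of the 100 members and in 65.0 and 64.2 percent of other tumour cells, with 0.806 and 1.33 percent in myeloid barcodes. Hspa1a and Hspa1b, the inducible HSP70 genes, were lower on 18 and 99 UMIs in all members, and DESeq2 called neither. Hspb8, another small heat shock protein, was called higher on 40 and 28 UMIs, and DESeq2 did not call it. Among 12 immediate early genes, which respond within minutes to handling and signalling, Fos (38.3 and 35.2 against 19.1 and 24.9 CPM) and Fosb (34.2 and 44.5 against 22.1 and 22.4 CPM) were higher and Dusp1 lower, the last not called by DESeq2. The list median was 0.10, and with thinned ranking neither Fos nor Fosb was called.

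The other genes among the 15 furthest down had varied roles. Id3, an inhibitor of basic helix-loop-helix transcription factors and a BMP target, had 120 and 105 CPM against 307 and 311 CPM (log2 fold change -1.47 ± 0.05). Nrn1, which encodes the neuronal surface protein neuritin, had 40.7 and 42.0 CPM against 116 and 108 CPM, and Plat, tissue plasminogen activator, 12.1 and 19.5 against 44.7 and 51.4 CPM. S100a4, a calcium-binding protein, Igfbp7, a secreted binding protein, Mgst3, a microsomal glutathione transferase, and Ly6c1 were the remainder. Of 9 tested neural stem and glioma identity genes 2 fell and 0 rose: Tubb3, a neuronal tubulin (57.6 and 53.5 against 93.6 and 88.5 CPM), and S100b, with 0 UMIs in members against 44 and 41 in the others. The share of all genes tested that fell was 8.20 percent. Haemoglobin genes were called lower in 3 of 4 cases while Hbb-bs was not, at 269 and 7.62 CPM in members against 165 and 19.8 CPM. Against other cells with at least 4 of the 5 ranking genes those 3 were above 0 instead. In that comparison edgeR called 3 of the 4 haemoglobin genes higher and 0 lower. The part of red cell RNA in other results was not tested.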

How the data were processed

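Choices of 2 kinds bear on the values: how the authors made the counts, and how cells were classed. Per the labels, the deposited UMI counts per gene and barcode were made with Cell Ranger 3.1, STAR and the mm10 genome. The gene annotation is not given in the sources used here. The labels also describe equalising depth over runs, yet the files hold 63001350 and 58915133 UMIs, so counts were used as deposited. All matrix columns carried a sample. A CPM is a count over the UMI total of a cell or class, times 1000000.

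Cells passed the gates in the opening (2023 and 1697 barcodes after the gene filter, 1740 and 1446 after the mitochondrial filter, 1274 and 1087 after the UMI filter, 1046 and 869 after the Nras gate). Member sums held 4620820 and 5645562 UMIs, and sums of other tumour cells 47241123 and 43091063. edgeR 4.0.16 (TMM, filterByExpr, quasi-likelihood test, library block, R 4.3.3) tested the 4 sums with the ranking genes left out, and DESeq2 1.42.0 was an alternative. An SE is the log2 fold change over the square root of the F statistic. Per-cell work used scanpy 1.11.5 and thinning a fixed seed. Myeloid barcodes, used as a floor, had at least 10 UMIs of Tyrobp and Fcer1g and under 500 CPM of Nras. Intervals were not computed, and floors (3 counts) cover counting error only. The code was tested on simulated data.

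Named genes were the 5 ranking genes, called members of 36 lists (489 genes, 440 tested), and, outside the lists, the 15 called genes furthest in each direction with at least 20 CPM in the higher class and 1 direction in both libraries. The members, lists and rules were chosen with earlier results of these data known. The mitotic, interferon, 4-of-5 and robust alternatives were added after seeing the data. Gene positions are from GENCODE M21 (GRCm38, the assembly of mm10), promoters from RefSeq (GRCm38.p6). Some list genes that were called are not reported here by name. Reads of close paralogs, such as the haemoglobin and HSP70 genes, may be split between copies.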

Additional observations from a re-analysis of the deposited data

How the results depend on the processing

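Against 470 higher and 1012 lower genes, DESeq2 called 254 and 346, a filter of 20 CPM gave 190 and 342, a size threshold of log2 1 gave 115 and 450, no size threshold 1906 and 1864, and ranking on counts thinned to 10000 UMIs 226 and 565. In the fit with no replicate block for the library the counts were 465 and 973, of which 460 and 963 were the same genes. The other 14 alternatives with a test, of scaling, filters, members and gates, stayed within 1.5 times, at 339 to 498 higher and 695 to 1057 lower. With no filter on low counts the median log2 fold change of all genes was -0.14. Of 145 named genes 116 kept their call under DESeq2, 94 under thinned ranking and 141 without the block. These log2 fold changes turned: Ifit1 to 0.02 under thinned ranking; Hba-a1, Hba-a2 and Hbb-bt to 1.86, 1.68 and 0.76 against other cells with 4 of the 5 ranking genes; Cd74 and Cxcl10 to 0.42 and 0.01 without interferon-high cells. Cxcl10 is itself among the genes that define interferon-high cells. With 1 library left out, a value with no test, Csf3 ranged from -1.78 to 0.07. The cause was not tested. Depth limits genes on few UMIs, and 2 libraries limit every p.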

Other observations

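Of 15 cholesterol synthesis genes tested 5 fell in members and 1 rose, with a median log2 fold change of -0.21. Insig1, the sterol sensor that retains SREBP in the endoplasmic reticulum, had 5.19 and 7.97 CPM against 14.1 and 14.8 CPM in other tumour cells. Idi1 and Srebf2 each fell by 0.51 on the log2 scale. Msmo1, a sterol oxidase of the same pathway, was called higher, at 102 and 93.2 CPM against 61.7 and 68.3 CPM, but not under thinned ranking, with the top 200 cells or within the members' UMI range. DESeq2 called 1 higher and 2 lower.

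Of 19 glycolysis and hypoxia genes 3 fell and 0 rose. Egln3, an oxygen-sensing hydroxylase induced by hypoxia, had 28.1 and 23.4 CPM against 47.9 and 48.1 CPM, and Ankrd37 26.6 and 24.1 against 45.7 and 42.1 CPM, while Car9 had 1 UMI in all members. In the MAPK feedback list 2 of 13 fell and 1 rose. Dusp4, a phosphatase of ERK, stood at 16.7 and 16.5 CPM against 33.6 and 36.2 CPM, Phlda1 at 97.4 and 86.6 against 154 and 156 CPM, and Myc, the gene that rose, at 56.7 and 45.5 against 33.6 and 34.2 CPM. Of 12 p53 and Cdkn2a genes 1 rose, Bbc3, which encodes the pro-apoptotic protein PUMA (29.0 and 35.1 against 17.7 and 19.8 CPM), and 1 fell, Phlda3 (72.3 and 59.5 against 102 and 95.3 CPM). Ranked on thinned counts, none of Myc, Bbc3 and Phlda3 was called. Every count in this section stands beside 3.81 percent called higher and 8.20 percent called lower over all genes tested. Single calls, as in the p53 and Cdkn2a list, are not read as a result about the list.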
